A study of Mus musculus with 18 samples.

Results

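Cxcr3, Cxcr6 and Cx3cr1 are 3 chemokine receptors carried by T cells, natural killer (NK) cells and monocytes, and they were followed here in mouse bone marrow together with 4 of their ligands. The 7 genes Cxcl9, Cxcl10, Cxcr3, Cxcl16, Cxcr6, Cx3cl1 and Cx3cr1 were chosen by name as ligand-receptor pairs, with no threshold on their values. They were chosen with earlier results of these data known, so their counts and medians are descriptions. They are 7 of 17178 genes with a probe on the array, and all 7 were among the 11884 genes bright enough to be tested. RNA of whole bone marrow from female C3H mice was measured on 18 one-colour Agilent arrays, 1 array per mouse. Mice were 1 or 8 weeks old and were left unirradiated (0 Gy, the control), or received 2 Gy of gamma rays at 0.6 Gy/min and were sampled 6 h or 24 h later, which makes 6 groups of 3 arrays. No group carries a transgene or a deletion by the labels. The study compared irradiated with unirradiated marrow at each age and asked how the response depends on age.

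Chemokines are small secreted proteins that guide cells along a gradient, and their receptors couple to G proteins. Cxcl9 and Cxcl10 are induced by interferons in macrophages, endothelium and stroma, and both bind Cxcr3 on activated T cells and NK cells. Cxcl16 and Cx3cl1 are unusual in that both are made as membrane-anchored proteins, which hold receptor-bearing cells in place and become soluble attractants once proteases cut them off. Cxcr6, the receptor of Cxcl16, marks resident and memory-type lymphocytes, and Cx3cr1, the receptor of Cx3cl1, marks patrolling monocytes, their precursors, some macrophages and cytotoxic lymphocytes.

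The promoter sequences of Cxcl9 and Cxcl10 are shown because these neighbouring genes on chromosome 5 were the pair of ligands for one receptor, and because interferon and NF-kB elements in promoters of this kind are well studied. Each sequence is the 250 bases before the annotated RefSeq start (build GRCm38.p6), on the gene's own minus strand, at chr5:92328080-92328329 for Cxcl9 and chr5:92348890-92349139 for Cxcl10. Capitals mark matches to an NF-kB type site (GGG, 2 bases of any kind, TT, 1 base of any kind, CC) or to the core of the interferon-stimulated response element (GAAA, 2 bases of any kind, GAAA).
Cxcl9: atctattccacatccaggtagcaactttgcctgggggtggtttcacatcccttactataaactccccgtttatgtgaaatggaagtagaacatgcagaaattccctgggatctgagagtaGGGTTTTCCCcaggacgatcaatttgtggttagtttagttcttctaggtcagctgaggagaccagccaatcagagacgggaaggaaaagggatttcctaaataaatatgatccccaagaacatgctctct
Cxcl10: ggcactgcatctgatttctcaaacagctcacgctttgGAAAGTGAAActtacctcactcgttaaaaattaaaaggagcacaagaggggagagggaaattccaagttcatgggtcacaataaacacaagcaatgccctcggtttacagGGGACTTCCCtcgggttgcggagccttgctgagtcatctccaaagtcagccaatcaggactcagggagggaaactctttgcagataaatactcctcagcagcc
The NF-kB type letters began 130 bases before the start in Cxcl9 and 103 bases before it in Cxcl10, and the interferon element letters stood in Cxcl10, 213 bases before the start. On either strand of all 32851 promoter windows of this length, the NF-kB type site matched in 1350 (4.11%) and the interferon element core in 978 (2.98%). Neither motif matched the windows of Cxcr3, Cxcr6, Cx3cl1 and Cx3cr1. A STAT element (TTC, 3 bases of any kind, GAA) was also searched for and matched no member's window, Cxcl9 and Cxcl10 included. It matched 2306 (7.02%) of all windows. A match describes letters only, and windows were found for 6 of the 7 genes.

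Levels below are log2 signal relative to the 75th percentile of all non-control probes of the same array, so that 0 lies at that percentile and a step of 1 is a doubling. A probe's level says nothing about another probe's, so levels are compared across arrays within a gene and never between genes. Differences between group means are given on this log2 scale ± standard error (SE), from a limma fit over all 18 arrays, with p-values adjusted by Benjamini and Hochberg over the 11884 genes, and "rose", "fell" or "called" means an adjusted p under 0.05. Between 51.0 and 62.1% of 41174 probes were well above background on each array. Replicates of a group correlated at r of 0.978 to 0.997. The lowest values were those of replicate 2 of the 1-week controls, whose summed signal of skeletal muscle and cartilage genes was 398 times the array's 75th percentile against 5.14 and 7.13 in the other 2 controls. Without that array the fit called 4, 3, 3 and 6 of the 7 genes in the 4 comparisons with controls (6 h and 24 h at 1 week, then 6 h and 24 h at 8 weeks), against 5, 3, 3 and 6 with it. All 12 genes chosen to define blood-forming marrow (granulocyte, erythroid and B-cell precursor genes) were bright enough to be tested, and 6 of them rose and 6 fell at 24 h in 8-week marrow. Over all genes tested, 38.3% rose and 19.5% fell there. Of 11 muscle and cartilage genes tested, 9 were lower in older controls, against 37.5% of all genes, and 1 rose and 1 fell at 24 h in 8-week marrow. Sox9, Matn1 and Col9a1 were well above background on 0 of 3 8-week controls, so their differences from those controls rest in part on readings near background.

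**Figure D1:**
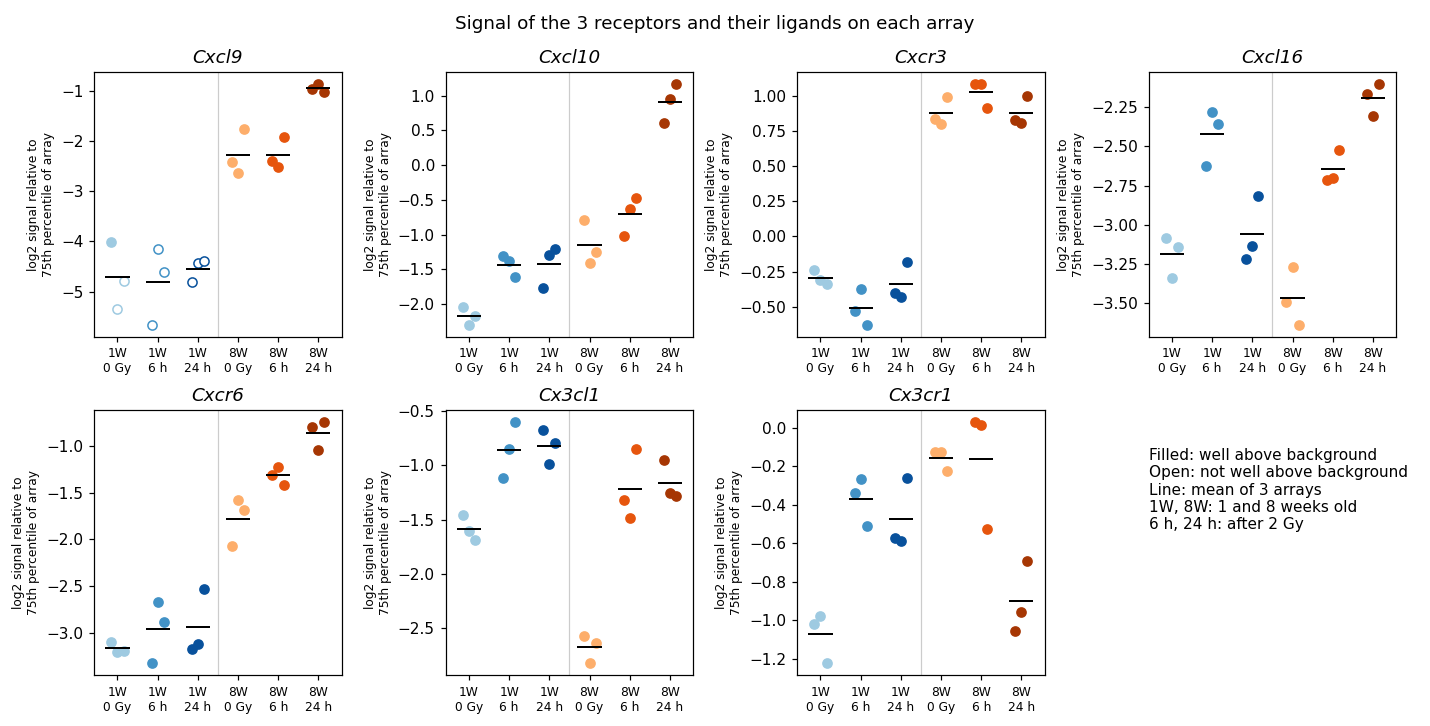
Log2 signal of each of the 7 genes relative to the array's 75th percentile (vertical axis, a separate range per gene) on the 3 arrays of each of the 6 groups (horizontal axis; 1W and 8W are 1 and 8 weeks, 6 h and 24 h are times after 2 Gy), with open points where the probe was not well above background and a line at the group mean. Cxcl9 is dim on nearly all 1-week arrays, Cxcr3 separates by age, and Cxcl10 and Cxcl9 are highest in the 8-week 24 h group.

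At 1 week, 5 of the 7 genes were called at 6 h, against 51.8% of all genes tested. Cxcl10, Cxcl16, Cx3cl1 and Cx3cr1 rose (25.5% of all genes did) and Cxcr3 fell (26.3% did). At 24 h, 3 of the 7 were called, all of them rising, against 36% of all genes called and 18.4% rising. These were Cxcl10, Cx3cl1 and Cx3cr1. At 8 weeks, 3 of the 7 rose at 6 h (Cxcl16, Cxcr6 and Cx3cl1), against 46% of all genes called, 23.9% rising and 22.1% falling. At 24 h, 6 of the 7 were called against 57.8% of all genes. Cxcl9, Cxcl10, Cxcl16, Cxcr6 and Cx3cl1 rose, where 38.3% of all genes did, and Cx3cr1 fell, where 19.5% did. The median difference of the 7 genes was 1.27 at 24 h in 8-week marrow against 0.12 over all genes tested, and 0.70 against 0.0046 at 6 h, 0.23 against -0.011 at 24 h in 1-week marrow and 0.44 against 0.021 at 6 h in 8-week marrow. Each pair of times at an age shares its 3 control arrays, so the 6 h and 24 h differences are not independent of each other.

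**Figure D2:**
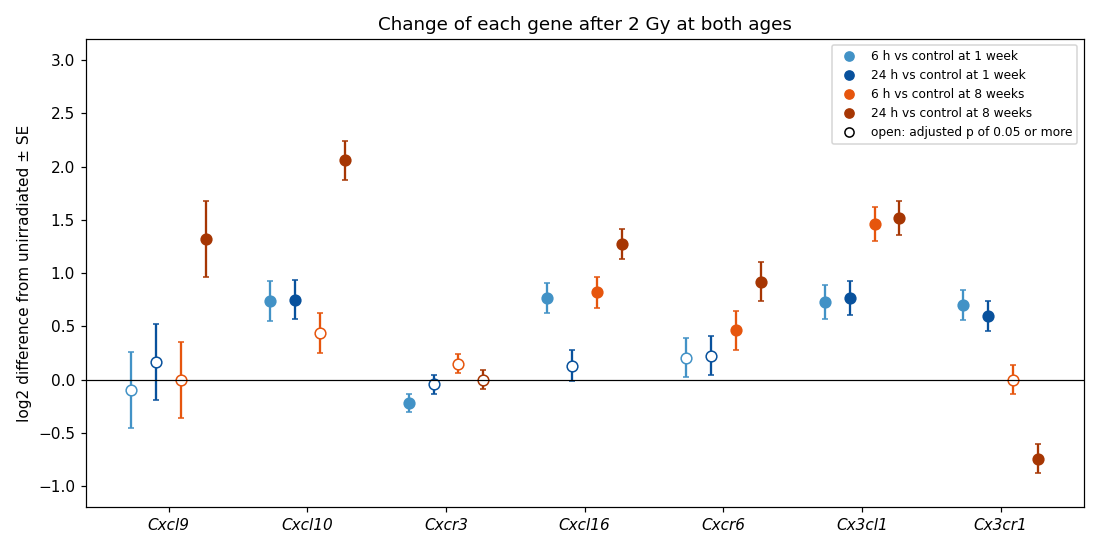
Log2 difference from the unirradiated arrays of the same age (vertical axis, ± SE of the limma fit, 3 arrays per group) for each gene (horizontal axis), with 1 week in blue and 8 weeks in orange, lighter for 6 h and darker for 24 h, and open points where the adjusted p was 0.05 or more. Cxcl10 at 24 h in 8-week marrow has the highest value (2.06), and Cx3cr1 lies above 0 at 1 week and below 0 at 24 h in 8-week marrow.

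Cxcl9, the ligand of Cxcr3 that depends most on interferon-gamma, was measured in 8-week marrow and hardly in 1-week marrow. Its levels in 8-week controls were -2.42, -2.64 and -1.75, those at 6 h were -2.39, -2.51 and -1.91, and those at 24 h were -0.97, -0.86 and -1.02. All 3 arrays at 24 h lay above every 8-week array at 0 Gy and 6 h, while the 0 Gy and 6 h arrays overlapped. Cxcl9 rose at 24 h by 1.32 ± 0.36 on the log2 scale, which is 2.49-fold (adjusted p = 0.00474), and its difference at 6 h was 0.00 ± 0.36 (95% interval -0.76 to 0.76). From 6 h to 24 h it rose by 1.32 ± 0.36 (adjusted p = 0.00568). On the 1-week arrays the probe was well above background on 1 of 9, control replicate 1 at -4.00, so no change after irradiation can be read there. The 1-week readings ran from -5.66 to -4.00, all under the lowest 8-week reading of -2.64. Between the ages at 0 Gy the measured difference was 2.44 ± 0.36 (adjusted p = 1.69e-05), but 2 of the 3 younger controls were not well above background. With normexp background correction, which models the local background in place of plain subtraction, it was 1.14 (adjusted p = 0.00507). Normexp was run with an offset of 50 added to every signal, and such a constant shrinks log2 differences of dim probes. The processed signals of Cxcl9 in the 1-week controls were 42.2, 16.1 and 26.4. How far the offset accounts for this value, or for calls lost with normexp below, was not tested.

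Cxcl10, the second ligand of Cxcr3 and one also induced by type I interferons, was above background on all 18 arrays. In 1-week controls its levels were -2.05, -2.30 and -2.17, at 6 h they were -1.31, -1.38 and -1.61, and at 24 h they were -1.76, -1.29 and -1.21. Both irradiated groups lay wholly above the controls and overlapped each other. In 8-week marrow the controls read -0.79, -1.41 and -1.24, the 6 h arrays -1.02, -0.64 and -0.48, and the 24 h arrays 0.61, 0.95 and 1.17. The 24 h arrays were higher than all other arrays of the series, whereas 6 h and control arrays overlapped. At 1 week Cxcl10 rose by 0.74 ± 0.19 at 6 h (adjusted p = 0.00322) and by 0.75 ± 0.19 at 24 h (adjusted p = 0.00457), or 1.67- and 1.68-fold. The second of these did not pass with normexp background correction (0.57, adjusted p = 0.0504). At 8 weeks the difference at 6 h was 0.44 ± 0.19 (adjusted p = 0.0631), and at 24 h Cxcl10 rose by 2.06 ± 0.19, 4.16-fold (adjusted p = 1.32e-07). The 6 h difference at 8 weeks passed the threshold without control replicate 1 (0.62, adjusted p = 0.0189) or without 6 h replicate 1 (0.59, adjusted p = 0.0238). It also passed without 24 h replicate 1 of the 1-week mice, an array outside the comparison (adjusted p = 0.0472). Before irradiation the older marrow already had 2.03-fold more Cxcl10 signal, a difference of 1.02 ± 0.19 (adjusted p = 0.000139).

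The rise of Cxcl10 at 24 h was larger in the older mice by 1.31 ± 0.26 on the log2 scale (adjusted p = 0.000936, limma interaction term). For Cxcl9 the same contrast gave 1.15 ± 0.51 (adjusted p = 0.0773, 95% interval 0.08 to 2.22), which did not pass and rests on 1-week readings that were not well above background. That value passed without 1-week control replicate 2 (1.47, adjusted p = 0.0253), without 8-week control replicate 3 (1.41, adjusted p = 0.0425) and without 6 h replicate 1 of the 1-week mice, which is not in the contrast (adjusted p = 0.0376). At 6 h the responses of the ages differed by -0.30 ± 0.26 for Cxcl10 (adjusted p = 0.454).

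Cxcr3, the shared receptor of Cxcl9 and Cxcl10, was higher on every 8-week array than on any 1-week array. Readings at 1 week were -0.24, -0.31 and -0.34 in controls, -0.53, -0.38 and -0.63 at 6 h, and -0.41, -0.43 and -0.18 at 24 h. At 8 weeks they were 0.84, 0.80 and 1.00 in controls, 1.09, 1.08 and 0.91 at 6 h, and 0.83, 0.81 and 1.00 at 24 h. The older mice thus ran from 0.80 to 1.09 and the younger from -0.63 to -0.18, and the 8-week controls and 24 h arrays covered nearly the same range. The age difference in controls was 1.17 ± 0.09, or 2.26-fold (adjusted p = 8.76e-09). While both its ligands rose at 24 h in 8-week marrow, Cxcr3 gave 0.00 ± 0.09 there, with a 95% interval of -0.18 to 0.18. At 6 h the 8-week difference was 0.15 ± 0.09 (adjusted p = 0.169), and at 1 week Cxcr3 fell by 0.22 ± 0.09 on the log2 scale (adjusted p = 0.0452). The responses at 6 h differed between the ages by 0.37 ± 0.12 (adjusted p = 0.0468). Both of these 6 h calls sat just under the threshold: 9 of 18 fits that each left out 1 array lost the first, and 13 of 18 lost the second. The first was lost without any of the 3 controls, without 6 h replicate 1 or 3 (-0.16, adjusted p = 0.168, for the latter) and without 4 arrays outside the comparison. The second was kept only without replicate 2 of the 1-week 6 h arrays or replicate 3 of the 1-week 24 h, 8-week control, 8-week 6 h or 8-week 24 h arrays, and gave 0.31 to 0.44 over all 18 (adjusted p up to 0.103). With the replicate number as a block they gave adjusted p = 0.0597 and 0.064. In whole marrow, fewer cells that carry a transcript and less of it per cell cannot be told apart, for Cxcr3 or for any gene below.

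Cxcl16, a transmembrane ligand that also acts as a scavenger receptor, was dim but above background on all 18 arrays. Control readings were -3.09, -3.34 and -3.14 at 1 week and -3.49, -3.27 and -3.64 at 8 weeks. The 1-week arrays read -2.63, -2.28 and -2.36 at 6 h, and -3.22, -3.14 and -2.82 at 24 h. The 8-week arrays read -2.71, -2.70 and -2.52 at 6 h, and -2.17, -2.31 and -2.10 at 24 h. At 6 h, both ages lay wholly above their controls. By 24 h the younger arrays overlapped their controls again, whereas the older arrays had moved further up with no overlap.

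At 6 h Cxcl16 rose by 0.77 ± 0.14 at 1 week (adjusted p = 0.000329) and by 0.82 ± 0.14 at 8 weeks (adjusted p = 0.000296), 1.70- and 1.77-fold. With normexp background correction neither 6 h rise passed (0.59 and 0.46, adjusted p = 0.369 and 0.599). The difference of the 6 h responses was 0.05 ± 0.20, with a 95% interval of -0.38 to 0.49. At 24 h the difference from controls was 0.13 ± 0.14 at 1 week (adjusted p = 0.514), and Cxcl16 rose by 1.27 ± 0.14, 2.42-fold, at 8 weeks (adjusted p = 1.8e-06). The 24 h responses differed between the ages by 1.14 ± 0.20 (adjusted p = 0.000407), a call lost with normexp (0.94, adjusted p = 0.293). From 6 h to 24 h Cxcl16 fell by 0.64 ± 0.14 on the log2 scale in the younger marrow (adjusted p = 0.00269) and rose by 0.45 ± 0.14 in the older (adjusted p = 0.0158). It was the only one of the 7 genes called in that comparison at 1 week, where 36.2% of all genes were called, and 1 of 5 at 8 weeks, where 49.4% were. With normexp neither change from 6 h to 24 h passed (-0.36 and 0.72, adjusted p = 0.879 and 0.19), and with probes averaged the rise at 8 weeks was 0.78. That rise did not pass without 24 h replicate 3 (0.41, adjusted p = 0.0576) or without 6 h replicate 2 (0.43, adjusted p = 0.0519). A second, dimmer probe of Cxcl16 gave 1.14 at 6 h and 0.26 at 24 h at 1 week. At 8 weeks it was well above background on 1 of 3 controls and 2 of 3 arrays at 6 h, so its measured differences there, 0.65 and 1.76, rest in part on readings near background. Between the controls of both ages the difference was -0.28 ± 0.14 (adjusted p = 0.104). It passed with the slide as a block (-0.45, adjusted p = 0.0078), with the probes averaged, the dim one included (-0.55, adjusted p = 0.00645), and without 8-week control replicate 2 (-0.38, adjusted p = 0.0489).

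Cxcr6, the receptor of Cxcl16, was higher in older marrow and climbed there after irradiation. Its 1-week readings were -3.09, -3.20 and -3.20 in controls, -3.32, -2.67 and -2.88 at 6 h, and -3.17, -3.11 and -2.52 at 24 h, and these 3 groups overlapped. Its 8-week readings were -2.07, -1.58 and -1.69 in controls, -1.31, -1.22 and -1.42 at 6 h, and -0.80, -1.04 and -0.75 at 24 h. The 8-week groups followed each other upward in that order with no overlap, and every one of those arrays lay above every 1-week array. At 8 weeks Cxcr6 rose by 0.46 ± 0.18 at 6 h (adjusted p = 0.0475) and by 0.92 ± 0.18 at 24 h, 1.89-fold (adjusted p = 0.000442). At 1 week the differences were 0.21 ± 0.18 (adjusted p = 0.361) and 0.23 ± 0.18 (adjusted p = 0.363), with 95% intervals of -0.18 to 0.59 and -0.16 to 0.61. Its age difference in controls was 1.38 ± 0.18, 2.60-fold (adjusted p = 5.51e-06). The 24 h responses differed between the ages by 0.69 ± 0.26 (adjusted p = 0.0407), and from 6 h to 24 h at 8 weeks Cxcr6 rose by 0.45 ± 0.18 (adjusted p = 0.0489). The call at 6 h in 8-week marrow was lost in 12 of 18 fits that left out 1 array: any 6 h array, control replicate 1 (0.32, adjusted p = 0.206) or 3, and 7 arrays outside the comparison. The rise from 6 h to 24 h was lost in 12 as well: any 6 h array, 24 h replicate 1 or 3 (0.40, adjusted p = 0.139, for the latter) and 7 arrays outside. The difference between ages at 24 h was lost in 9 of 18: any 1-week control, replicate 1 or 2 of the 1-week 24 h arrays, 8-week control replicate 1 (0.55, adjusted p = 0.112) or 3, and replicate 1 or 3 of the 8-week 24 h arrays. The 24 h rise at 8 weeks was kept in all 28 other fits tried, with values of 0.77 to 1.08.

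Cx3cl1, also called fractalkine and the ligand of Cx3cr1, rose in all 4 comparisons with controls. Its 1-week levels were -1.46, -1.61 and -1.69 in controls, -1.12, -0.85 and -0.60 at 6 h, and -0.67, -0.99 and -0.80 at 24 h. Its 8-week levels were -2.58, -2.83 and -2.64 in controls, -1.31, -1.48 and -0.85 at 6 h, and -0.95, -1.26 and -1.28 at 24 h. The irradiated arrays lay wholly above the controls of their age, and the 6 h and 24 h arrays overlapped at both ages. The 8-week controls were the lowest 3 of the 18 arrays. Cx3cl1 rose at 1 week by 0.73 ± 0.16 at 6 h and 0.77 ± 0.16 at 24 h (adjusted p = 0.00107 and 0.00123). It rose at 8 weeks by 1.47 ± 0.16 at 6 h, 2.76-fold, and 1.52 ± 0.16 at 24 h, 2.87-fold (adjusted p = 3.08e-06 and 6.99e-07). Unirradiated older marrow had less Cx3cl1 than younger, by -1.09 ± 0.16, and it was the only one of the 7 called lower in this fit (adjusted p = 1.53e-05, against 37.5% of all genes lower), Cxcl16 passing as lower only under the settings given above. In controls, 6 of the 7 genes were called by age against 64.9% of all genes, with Cxcl9, Cxcl10, Cxcr3, Cxcr6 and Cx3cr1 higher where 27.4% of all genes were. The responses of Cx3cl1 were larger in the older mice by 0.73 ± 0.22 at 6 h (adjusted p = 0.0327) and 0.75 ± 0.22 at 24 h (adjusted p = 0.0137). At 24 h the group means were -1.16 at 8 weeks and -0.82 at 1 week, so the larger rise started from the lower level. The age difference at 6 h was lost in 6 of 18 fits that left out 1 array: 1-week control replicate 1, 1-week 6 h replicates 1 and 2, 8-week control replicates 2 and 3 or 8-week 6 h replicate 3 (values 0.55 to 0.75, adjusted p up to 0.0874).

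Cx3cr1 changed in opposite directions at the 2 ages. Its 1-week readings were -1.02, -0.97 and -1.22 in controls, -0.34, -0.26 and -0.51 at 6 h, and -0.57, -0.59 and -0.26 at 24 h. Its 8-week readings were -0.13, -0.12 and -0.22 in controls, 0.03, 0.02 and -0.52 at 6 h, and -1.05, -0.95 and -0.69 at 24 h. The younger irradiated arrays lay above their controls, and the older 24 h arrays lay below theirs, with 1 of 3 in the range of the 1-week controls. At 6 h in the older mice 2 arrays stood above the controls and replicate 3 below them. Cx3cr1 rose at 1 week by 0.70 ± 0.14 at 6 h, 1.63-fold, and 0.60 ± 0.14 at 24 h, 1.51-fold (adjusted p = 0.000473 and 0.00292). At 8 weeks the 6 h difference was 0.00 ± 0.14 (95% interval -0.29 to 0.29), and at 24 h it fell by 0.74 ± 0.14 on the log2 scale, 1.67-fold (adjusted p = 0.00025). Older controls exceeded younger ones by 0.91 ± 0.14 (adjusted p = 2.32e-05).

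The age contrast of the Cx3cr1 response was -0.70 ± 0.20 at 6 h (adjusted p = 0.0208) and -1.34 ± 0.20 at 24 h (adjusted p = 7.32e-05). Among the 7 genes 3 were called for the 6 h contrast (Cxcr3 and Cx3cl1 higher, Cx3cr1 lower), against 18.6% of all genes, 10.5% higher and 8.09% lower, and 5 for the 24 h contrast, against 42.1%. Cx3cr1 was the one with a lower response in older mice in each. A second probe for Cx3cr1 was not well above background on 17 of 18 arrays, the exception being 24 h replicate 2 at 8 weeks (-2.41). With both probes averaged the calls did not pass: 0.51 at 6 h and 0.32 at 24 h at 1 week (adjusted p = 0.19 and 0.474), 0.13 at 24 h at 8 weeks (adjusted p = 0.755) and -0.20 for the 24 h age contrast (adjusted p = 0.76). The age difference in controls (0.70, adjusted p = 0.0639) and the 6 h age contrast (-0.38, adjusted p = 0.595) were lost as well. So was the fall from 6 h to 24 h at 8 weeks (-0.0030, adjusted p = 0.995).

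The slide, which holds 3 or 4 arrays of different groups, was also entered as a block. With it the differences at 24 h in 8-week marrow were 1.57 for Cxcl9, 2.21 for Cxcl10, 0.01 for Cxcr3, 1.45 for Cxcl16, 1.08 for Cxcr6, 1.55 for Cx3cl1 and -0.77 for Cx3cr1, with the same 6 genes called. On the single slide with a control and a 24 h array of that age the differences were 0.73, 2.41, 0.00064, 1.53, 0.94, 1.36 and -0.47 in the same order. At 6 h in 8-week marrow the block gave 1.00 for Cxcl16, 0.75 for Cxcr6 and 1.504 for Cx3cl1, and the slide with both groups gave 0.97, 0.65 and 1.73. For Cxcr6 at 6 h in 1-week marrow the block turned the sign of a difference that was not called, to -0.11 ± 0.11, and the age contrast at 6 h then passed (0.86, adjusted p = 0.0121). With the block the 6 h age contrasts of Cx3cl1 (0.79, adjusted p = 0.111) and Cx3cr1 (-0.55, adjusted p = 0.127) did not pass. At 1 week the slide with a control and a 6 h array gave 0.73 for Cxcl10, 0.46 for Cxcl16, 0.35 for Cx3cl1, 0.68 for Cx3cr1 and -0.29 for Cxcr3.

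With normexp background correction further calls were lost. For Cxcr3 these were the 6 h fall at 1 week (-0.23, adjusted p = 0.283) and the 6 h age contrast (0.40, adjusted p = 0.513). For Cxcr6 they were the 6 h rise at 8 weeks (0.38, adjusted p = 0.303), the 24 h age contrast (0.69, adjusted p = 0.127) and the rise from 6 h to 24 h at 8 weeks (0.52, adjusted p = 0.0714). The age contrasts of Cx3cl1 were 0.48 at 6 h and 0.76 at 24 h (adjusted p = 0.667 and 0.0562), and that of Cx3cr1 at 6 h was -0.65 (adjusted p = 0.211). The fall of Cx3cr1 at 24 h at 8 weeks was kept at -0.49 (adjusted p = 0.0222) and its fall from 6 h to 24 h there at -0.45 (adjusted p = 0.0481). The age difference of Cxcr6 in controls was kept at 0.82.

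Genes around the ligands were followed as lists, also chosen with earlier results of these data known. In the lists below, a direction with no gene called also had none at an unadjusted p under 0.05 by limma, except for 1 endothelial gene that was lower at 24 h in 8-week marrow. The lists' counts stand beside shares of all genes rising and falling of 25.5 and 26.3% at 6 h and 18.4 and 17.6% at 24 h at 1 week, 23.9 and 22.1% at 6 h and 38.3 and 19.5% at 24 h at 8 weeks, and 27.4% higher and 37.5% lower with age. Of 18 genes of the interferon-gamma axis 16 were tested, Il12b having no matched probe and Il12rb2 being too dim. At 8 weeks 8 rose and 2 fell at 6 h, with a median difference of 0.27, and 8 rose and 2 fell at 24 h, with a median of 0.32. At 1 week 3 rose and 4 fell at 6 h (median -0.06), and 2 rose and 4 fell at 24 h (median 0.04). Ifng, interferon-gamma itself, rose at 8 weeks by 0.87 ± 0.21 at 6 h (adjusted p = 0.0032) and 1.24 ± 0.21 at 24 h (adjusted p = 0.000103). Its 1-week differences were -0.35 and 0.06 (adjusted p = 0.173 and 0.854). Il18, a cytokine that helps induce interferon-gamma, fell by 0.74 ± 0.08 at 6 h and rose by 0.62 ± 0.08 at 24 h at 1 week, and rose by 0.85 and 1.32 at 8 weeks. Il12a, a subunit of interleukin-12, fell by 1.31 ± 0.09 at 24 h at 1 week, and by 0.67 and 1.55 at 8 weeks. Irf1, an interferon-gamma target that acts on such promoters, was not called after irradiation (0.26 ± 0.11 at 24 h at 8 weeks, adjusted p = 0.0515, and 0.35, adjusted p = 0.0233, without 24 h replicate 1) but was higher by 0.83 ± 0.11 in older controls. In those controls 13 of the 16 genes were higher and 1 lower, with a median of 0.69.

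Interferon-induced genes other than these chemokines numbered 18 tested of 20, since Cxcl11, the further Cxcr3 ligand, and Mx2 had no matched probe. At 24 h in 8-week marrow 16 rose and none fell, with a median of 1.04. At 6 h 12 rose and 2 fell there (median 0.42), a count of rising genes that was 7 without 6 h replicate 2. At 1 week 5 rose and 5 fell at 6 h (median -0.05), and 7 rose and 1 fell at 24 h (median 0.18). The 7 at 24 h became 3 without 24 h replicate 2 or 3, and 4 without control replicate 2 or 3. Ifit3, which binds viral RNA complexes, fell by 1.12 ± 0.19 at 6 h at 1 week and rose by 0.52 ± 0.19 at 24 h (adjusted p = 0.000111 and 0.0375). At 8 weeks Ifit3 rose by 0.49 ± 0.19 at 6 h and by 3.25 ± 0.19 at 24 h (adjusted p = 0.0422 and 7.72e-10). Its 24 h rise at 1 week was lost without control replicate 2 (0.28, adjusted p = 0.197) or any of the 24 h arrays, and its 6 h rise at 8 weeks without control replicate 1 or 2 (0.40 and 0.39), 6 h replicate 2 or 3 (0.45 each) or 2 arrays outside the comparison (adjusted p up to 0.147). Both of these rises, and that of Oas3 at 24 h at 1 week, were also lost with normexp, with no filter on dim genes and in other settings. Ifit1, of the family of Ifit3, rose by 0.99 ± 0.20 at 24 h at 1 week and by 2.40 ± 0.20 at 24 h at 8 weeks. Gbp2, a guanylate-binding protein, fell by 0.52 ± 0.13 at 6 h at 1 week and rose by 1.63 ± 0.13 at 24 h at 8 weeks. Oas3, an antiviral RNA sensor, rose by 0.46 at 6 h and 0.30 at 24 h at 1 week and by 0.56 and 1.36 at 8 weeks. Its 24 h rise at 1 week (adjusted p = 0.0494) was lost without control replicate 2 or 3 (0.20 and 0.30, adjusted p = 0.207 and 0.0934), 24 h replicate 2 or 3 (0.24 and 0.30, adjusted p = 0.178 and 0.104) or any of 8 arrays outside the comparison. In controls 12 of the 18 were higher with age and none lower (median 0.58).

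**Figure D3:**
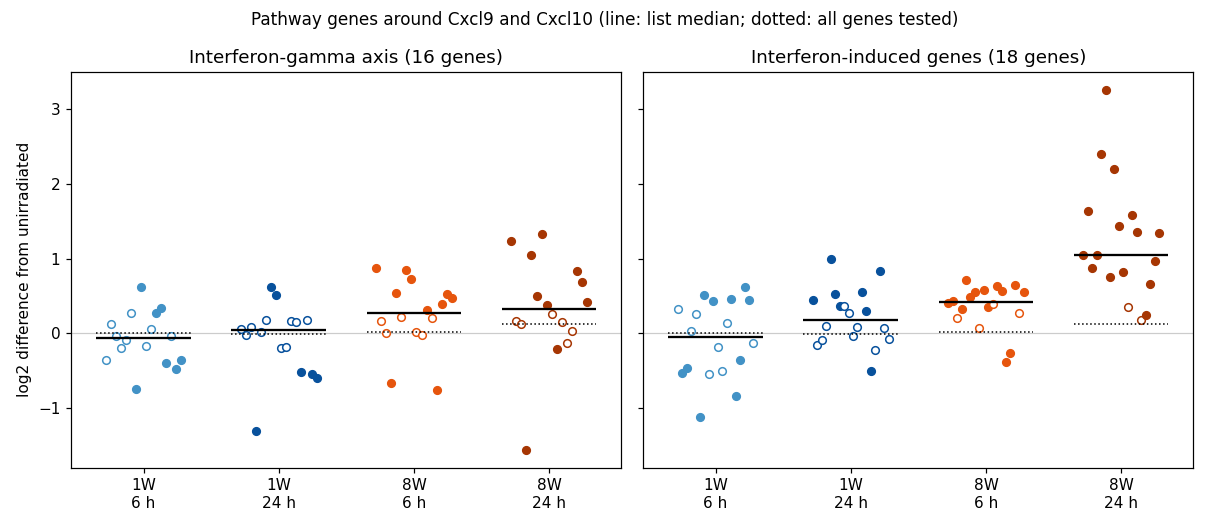
Log2 difference from the unirradiated arrays of the same age (vertical axis) for the 16 tested genes of the interferon-gamma axis (left) and the 18 tested interferon-induced genes (right) at 6 h and 24 h after 2 Gy at 1 week (1W) and 8 weeks (8W), each point a gene, filled where called, with a solid line at the list's median and a dotted line at the median of all 11884 genes. In 8-week marrow at 24 h the interferon-induced genes have a median of 1.04, and their medians at 1 week are -0.05 and 0.18.

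Genes that process these ligands or transmit their signal formed another list. Of 13 listed 11 were tested, Adam10, the sheddase of resting cells, and Arrb2 having no matched probe. At 1 week 6 rose and 2 fell at 6 h (median 0.20) and 2 rose and 1 fell at 24 h (median 0.13), and at 8 weeks 5 rose and 1 fell at each time (medians 0.20 and 0.12). The 5 of 11 at 24 h at 8 weeks is near the 38.3% of all genes that rose, and their median of 0.12 is that of all genes. Adam17, a protease that cuts Cx3cl1 and Cxcl16 from the membrane, rose by 0.30 ± 0.10 at 6 h at 1 week, and by 0.29 and 0.32 at 6 h and 24 h at 8 weeks. Each of these calls of Adam17 was lost in some fit that left out 1 array: 0.16 without 1-week control replicate 3, 0.26 and 0.23 without 8-week control replicate 2 and 6 h replicate 1, and 0.27 without 24 h replicate 1 (adjusted p = 0.123, 0.0852, 0.0997 and 0.0562). Rhbdf2, which carries Adam17 to the cell surface, rose in all 4 comparisons, by 0.68, 0.25, 0.55 and 0.54, though the 24 h value at 1 week did not pass without control replicate 2 (0.20, adjusted p = 0.0578). Dpp4, the peptidase that trims the amino end of Cxcl10 and makes it an antagonist, fell in all 4, by 1.06 and 1.32 at 1 week and by 1.12 and 1.80 at 8 weeks (SE 0.10 each). The counts of rising genes at 8 weeks were 3 at 6 h without control replicate 2, and at 24 h 2 or 3 without 24 h replicate 1, 24 h replicate 2 or control replicate 2.

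Marker genes of cell types that could carry the receptors or make the ligands moved as well, and their part in the results above was not tested. The summed signal of NK cell markers, in multiples of the array's 75th percentile, was 7.52 to 8.29 in 1-week controls and 21.3 to 23.3 in 8-week controls, and at 24 h it was 5.64 to 5.99 and 29.0 to 33.0. Of 12 NK markers 11 were higher in older controls and none lower (median 1.61). At 8 weeks 8 rose and none fell at 6 h, and 4 rose and 1 fell at 24 h, a share of rising genes below the 38.3% of all genes. The sum gives most weight to bright genes such as Nkg7, whose group mean went from 3.69 in 8-week controls to 4.38 at 24 h. Gzma and Klrb1c gave -0.08 and -0.20 at 24 h there, not called. At 1 week 4 rose and 2 fell at 6 h, and none rose and 4 fell at 24 h. Of the NK markers, Klrk1 and Klre1 were well above background on 0 of 3 younger controls and Eomes on 1 of 3. These were bright enough to be tested only through 8-week groups, so their age differences rest in part on readings near background. Ncr1, the NK receptor NKp46, was higher by 1.14 ± 0.15 in older controls and rose by 0.65 ± 0.15 at 6 h and 0.42 ± 0.15 at 24 h at 8 weeks, the latter lost without control replicate 1 or 24 h replicate 2 (0.34 and 0.36, adjusted p = 0.097 and 0.0866). Klrd1, the CD94 receptor chain, was higher by 2.04 ± 0.10 with age and rose by 0.62 at 6 h at 8 weeks, with -0.15 at 24 h, not called.

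T cell markers summed to 10.9 to 14.0 in 1-week controls and 13.8 to 16.7 in 8-week controls. Of 10 tested, 6 were higher and 2 lower with age (median 1.00), 5 rose and 1 fell at 6 h at 8 weeks, and 3 rose and 1 fell at 24 h, a share below the 38.3% of all genes that rose. Cd8a was well above background on 0 of 3 younger controls and was tested only through 8-week groups, so its age difference rests in part on readings near background. Among the defining T cell genes, Cd3e gave -0.39 and -0.23 at 6 h and 24 h at 8 weeks, not called. Its 8-week controls averaged -2.84 with a standard deviation of 1.01. Cd3d rose by 0.60 and 0.56, and the group mean of Cd3g went from -1.76 in 8-week controls to -1.22 at 6 h and -1.32 at 24 h. Monocyte and dendritic cell markers, which bear on Cx3cr1, summed to 18.4 to 20.5 in 1-week controls, 25.8 to 29.2 at 6 h and 26.3 to 28.3 at 24 h, with 10 of 14 rising and 1 falling at 6 h and 8 rising and none falling at 24 h. In 8-week marrow they summed to 27.1 to 28.7 in controls and 33.8 to 36.4 at 24 h, where 6 rose and 3 fell while Cx3cr1 fell. Csf1r, the receptor that maintains monocytes and macrophages, gave 0.18 ± 0.11 at 24 h at 8 weeks (adjusted p = 0.164). Nr4a1, a factor patrolling monocytes need, rose by 0.76, 0.45 and 0.46 at 6 h and 24 h at 1 week and 6 h at 8 weeks, and gave -0.10 at 24 h at 8 weeks (adjusted p = 0.199, or -0.18 and 0.0239 without control replicate 1).

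Resident macrophage markers, from cells known to make Cxcl16, rose for all 14 genes at 24 h in 8-week marrow, with a median of 1.43. Their sum went from 47.6 to 57.3 in those controls to 102 to 104 at 6 h and 167 to 182 at 24 h. At 1 week 1 rose and 11 fell at 6 h, when Cxcl16 rose, and 12 rose and none fell at 24 h, when Cxcl16 overlapped its controls. Marco, a scavenger receptor, rose by 3.32 ± 0.14 at 24 h at 8 weeks, and Spic, the factor of iron-recycling macrophages, by 1.91 ± 0.08. Endothelial markers, from cells known to make Cx3cl1, were lower in older controls for 10 of 11 genes (median -1.33), with sums of 23.9 to 31.6 at 1 week and 12.1 to 13.9 at 8 weeks. At 8 weeks 6 rose and none fell at 6 h, and 9 rose and none fell at 24 h, and at 1 week 4 and 2 rose and 1 fell at each time. Kdr, the VEGF receptor of these cells, rose by 0.57 and 1.38 at 6 h and 24 h at 8 weeks, and was lower by -1.65 ± 0.15 in older controls. The endothelial marker Tek was well above background on 0 of 3 8-week controls and was tested only through 1-week groups. Its differences from those controls rest in part on readings near background. Stromal markers were lower with age for all 11 genes (median -2.56), and at 8 weeks 10 rose at 6 h and all 11 at 24 h (medians 1.15 and 1.79). At 1 week none rose and 3 fell at 6 h, and 4 rose and none fell at 24 h (medians -0.11 and 0.45). Of the stromal markers, Lepr and Pdgfra were well above background on 0 of 3 8-week controls, and Lepr was tested only through the 1-week 6 h group. Their differences from those controls rest in part on readings near background. Mmp2, a matrix protease of stromal cells, rose by 2.67 ± 0.20 and 2.85 ± 0.20 at 8 weeks, more than the list medians. Its 8-week controls averaged -4.13, near the dimmest signals well above background on those arrays (-4.47, -4.75 and -4.59).

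**Figure D4:**
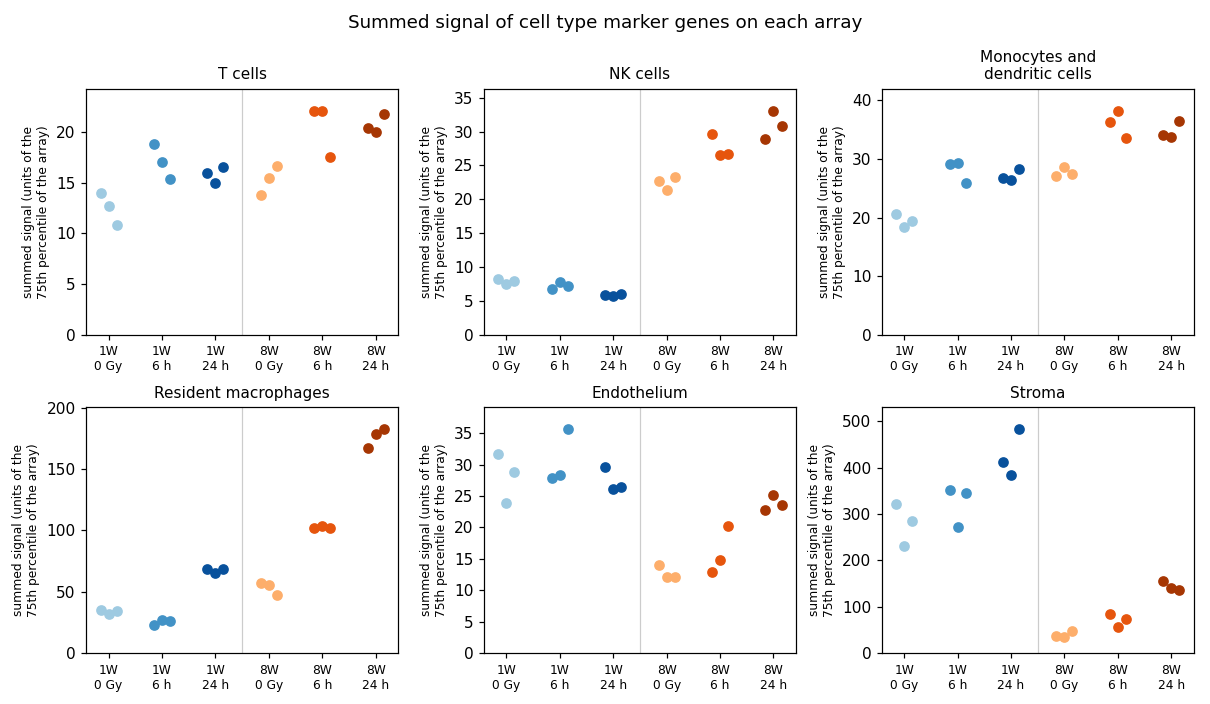
Summed signal of the tested marker genes of 6 cell types (vertical axis, in multiples of the array's 75th percentile, from 0, a separate range per list) on the 3 arrays of each group (horizontal axis; 1W and 8W are 1 and 8 weeks, 6 h and 24 h are times after 2 Gy). NK markers separate by age (5.64 to 8.29 at 1 week, 21.3 to 33.0 at 8 weeks), and macrophage markers reach 167 to 182 at 24 h in 8-week marrow.

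The pattern over the 18 arrays was described by Pearson's r with every other tested gene, as a description only, since the arrays share their groups and r mostly reflects group means. The r of deviations from group means, which leaves the groups out, is given second. Cxcl9 was not well above background on 8 of the 18 arrays, all at 1 week, so that its r values here and below rest in part on readings near background. For Cxcl9 the closest genes were Ttc39c (0.968 and 0.41), Trim30d (0.966 and 0.67) and Il2rg, the common chain of several lymphocyte cytokine receptors (0.964 and 0.65). For Cxcl10 they were Lbx2 (0.973 and 0.70), Prr5l (0.971 and 0.54) and Apol9b (0.959 and 0.49). Cxcr3 was closest to Klf8 (0.989 and 0.74), Gimap3, a lymphocyte GTPase (0.987 and 0.65), and Dnah8 (0.986 and 0.49). Cxcl16 was closest to Dapk1, a death-associated kinase (0.944 and 0.60), Ccl7, a monocyte-attracting chemokine (0.933 and 0.40), and Hyal1 (0.905 and 0.32). Cxcr6 had Naa60 (0.982 and 0.70), Tmem159 (0.980 and 0.48) and Lmo1 (0.980 and 0.54). Nearest to Cx3cl1 were Crip2 (0.954 and 0.41), Epas1, the hypoxia-inducible factor prominent in endothelium (0.951 and 0.78), and Serpine2 (0.949 and 0.77). Nearest to Cx3cr1 were Samd4 (0.927 and 0.50), Baz2b (0.911 and 0.77) and Crybg3 (0.897 and 0.44).

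Set against each other over the 18 arrays, Cxcr6 ran with Cxcl9 (r = 0.954) and Cxcr3 (0.927), and Cxcl9 with Cxcr3 (0.910) and Cxcl10 (0.831). Within groups these values were 0.45, 0.61, 0.30 and 0.20. Of the ligand-receptor pairs proper, Cxcl10 and Cxcr3 gave 0.657 (0.23 within groups), Cxcl16 and Cxcr6 0.417 (0.72 within groups) and Cx3cl1 and Cx3cr1 -0.245 (-0.58 within groups). Cxcl9 and Cxcr3 are given above.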

How the data were processed

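RNA from 18 marrow samples was labelled with Cy3 and hybridised singly to arrays, per the labels' protocols. The deposited array files hold intensity values that the authors took from Agilent Feature Extraction (11.5.1 in the submitters' processing notes, 9.5.1.1 per the file headers). The deposited series matrix holds log2 values of the same arrays, scaled and centred per probe by the authors; its 41174 matched probes of 41252 correlated with differences between arrays at r of 0.99989 or more. Control and outlier spots were left out, and log2 of the processed signal, minus each array's 75th percentile (signal 461 to 728), was used. Symbols came from RefSeq accessions (24844 probes named, 16330 not), with the probe of highest mean signal per gene.

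A gene was tested if some group had all 3 arrays well above background. The test was limma's (limma 3.58.1, R 4.3.3, package data.table in version 1.17.8), over 9 comparisons, 1 mean per group, intensity trend, two-sided, Benjamini-Hochberg adjusted, threshold 0.05. Of 17178 genes 5276 were too dim and 18 had an outlier spot. The script was tested on simulated data. The members and gene lists were chosen with earlier results of these data known. Named genes are the 7 members, for each the 3 genes of highest r, and up to 4 genes per list by adjusted p plus 9 fixed ones, of which 1 is not reported here. Alternatives were normexp background correction, quantile normalisation, another percentile, no filter, mean of probes, slide and replicate blocks, fewer groups, no trend, the series matrix and leaving out each array. Normexp used the median signal, in place of the planned mean signal, and an offset of 50. Array number limits the precision. The arrays come from separate mice by the design text.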

Additional observations from a re-analysis of the deposited data

Results flagged for a closer look

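The response to irradiation differed between the ages, by limma's interaction term, for 5 of the 7 genes at 24 h and 3 at 6 h, and each value here is the response at 8 weeks minus that at 1 week on the log2 scale. Cxcl10 gave 1.31 ± 0.26 at 24 h (adjusted p = 0.000936), Cxcl16 1.14 ± 0.20 at 24 h (adjusted p = 0.000407) and Cxcr6 0.69 ± 0.26 at 24 h (adjusted p = 0.0407). Cx3cl1 gave 0.73 ± 0.22 at 6 h (adjusted p = 0.0327) and 0.75 ± 0.22 at 24 h (adjusted p = 0.0137). Cx3cr1 gave -0.70 ± 0.20 at 6 h (adjusted p = 0.0208) and -1.34 ± 0.20 at 24 h (adjusted p = 7.32e-05). Cxcr3 gave 0.37 ± 0.12 at 6 h (adjusted p = 0.0468). With normexp background correction the 24 h value of Cxcl10 and the 24 h value of Cx3cr1 kept their calls and the others did not, Cxcl16 giving 0.94 (adjusted p = 0.293). Over all genes tested, 42.1% were called for the 24 h difference and 18.6% for the 6 h one.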

How the results depend on the processing

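Over the differences of 7 genes in 9 comparisons, 580 values under other settings stayed on their side of the threshold (21 of them, none called, changed sign), 44 lost the call, 5 gained one and 1 reversed. Leaving out each array, 1064 stayed (32, none called, changed sign), 63 lost the call and 7 gained one. With normexp background correction the members called were 3 and 1 at 6 h (1 and 8 weeks), 0 and 2 for the age contrasts at 6 h and 24 h, and 0 and 3 for 24 h against 6 h, while all genes called fell to 1286, 671, 759 and 3514 in the comparisons with controls (from 6161, 4279, 5469 and 6870), to 2804 by age (from 7711), 133 and 981 for the age contrasts (from 2210 and 5001) and 417 and 1857 for 24 h against 6 h (from 4299 and 5872). Of the calls, 83.5% were then higher for the 6 h contrast (56.5% otherwise) and 50.2% for 24 h against 6 h at 8 weeks (66.7%). It calls 5 of the 16 interferon-gamma axis genes rising at 24 h at 8 weeks and shifts the median of all genes there by -0.10. The 6 h age contrast kept 1 member with no filter on dim genes and 1 with only the groups compared, and the slide block called 1370 genes for it. With probes averaged, 3 members were called for 24 h against 6 h at 8 weeks, and Cx3cr1 reversed at 24 h at 8 weeks (0.13). The slide block called 2 for 24 h against 6 h at 1 week. Other reversals were Ngp at 24 h at 8 weeks (-0.23 with normexp, -0.0038 with quantiles), Thy1 at 6 h at 8 weeks (0.0065 with probes averaged) and Matn1 at 6 h at 1 week (-1.95 to 1.29 when 1 array was left out, 1.29 being without control replicate 2). The causes were not tested. Leaving out 1 array gave 4 to 5, 3 to 3, 2 to 4 and 6 to 6 members in the comparisons with controls, 6 to 7 by age, 1 to 3 and 4 to 6 for the age contrasts, and 1 to 1 and 3 to 5 for 24 h against 6 h. The replicate block is not a pairing by design: 45 same-numbered pairs had residual r of -0.27 to 0.32, and 9 of 18 arrays correlated best with their own number. With the block 4 members were called at 6 h at 1 week, and it changed no member's call other than Cxcr3 at 6 h (adjusted p = 0.0597) and its age contrast (0.064). Dim signal limits Cxcl9 at 1 week and the second probes of Cx3cr1 and Cxcl16.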
